A study of Homo sapiens with 3 samples.

Results

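miR-22 was read from both arms of its hairpin, hsa-miR-22-3p and hsa-miR-22-5p, which were chosen by name and make up 2 of the 1921 mature miRNA names in the count tables. Small RNA libraries had been made from 3 cultured strains of the line HCCLM3, which derives from human hepatocellular carcinoma (HCC). The parent is labelled as having low metastasis, subclone1 as metastasizing to the lung, and subclone2 as metastasizing to both lung and celiac lymph nodes. The study describes its parental line, HCCLM3 carrying a red fluorescent protein, instead as highly metastatic, and its clones as grown from single cells of lung or lymph node metastases in nude mice; the labels do not say which clones were sequenced. The labels name no treatment, and DMEM was the medium of all strains. Each strain had 1 library, so no difference given here has a replicate check, and every interval covers counting error only.

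A miRNA hairpin is cut by Drosha and then Dicer into a short duplex, and one strand of it, the guide, is retained by an Argonaute protein while the other, the passenger, is mostly degraded. The guide pairs with target mRNAs mainly through its seed, bases 2 to 8 from the 5′ end. The 3p arm is the usual guide of miR-22, a miRNA conserved among vertebrates that is often described as lower in HCC than in liver. HDAC4, a histone deacetylase, and TET2, an enzyme that oxidizes methylated DNA, are among its reported targets.

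The mature sequences of the arms are shown because their reads are what was counted. Capitals mark the seed, and both sequences are from RefSeq (GRCh38.p14).
hsa-miR-22-3p: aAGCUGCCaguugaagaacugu
hsa-miR-22-5p: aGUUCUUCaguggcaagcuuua
Both are 22 bases long and start with A. The 3p arm lies at chr17:1713914-1713935 and the 5p arm at chr17:1713952-1713973, both on the minus strand. Their hairpin gene MIR22 (chromosome 17, 1713903 to 1713987 in GENCODE release 29, GRCh38) lies within an exon of the long noncoding RNA MIR22HG, its host transcript, in all 19 annotated MIR22HG transcripts. Laid antiparallel without gaps, the arms paired at 17 of 20 overlapping positions, 2 of them G with U. Among 2370 RefSeq mature sequences, none of the others had the seed of either arm. The longest run of bases that either arm shared with another mature miRNA was 10, short of the 15 at which reads were treated as possibly misassigned.

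The guide arm differed little between the 3 strains. hsa-miR-22-3p was counted 1835 times in the parent library, 965 times in subclone1 and 1031 times in subclone2. Scaled to a library total of 1e+06 (CPM), its level was 232 in the parent (95% exact binomial interval 222 to 243), 270.2 for subclone1 (253 to 288) and 226 for subclone2 (212 to 239.9). Subclone1 was the highest and its interval did not overlap those of the other libraries, whereas the intervals of the parent and subclone2 overlapped. The highest level was 1.20 times the lowest.

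The passenger arm was scarcer and followed another order. hsa-miR-22-5p was counted 250 times in the parent library, 99 times in subclone1 and 113 times in subclone2. Its level was 31.6 CPM for the parent (27.8 to 35.8), 27.7 CPM for subclone1 (22.5 to 33.8) and 24.7 CPM for subclone2 (20.4 to 29.7). The parent was the highest here, but the intervals of all libraries overlapped. The highest level was 1.28 times the lowest. Summed over both arms, miR-22 amounted to 264, 298 and 250.4 CPM in the parent, subclone1 and subclone2.

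**Figure D1:**
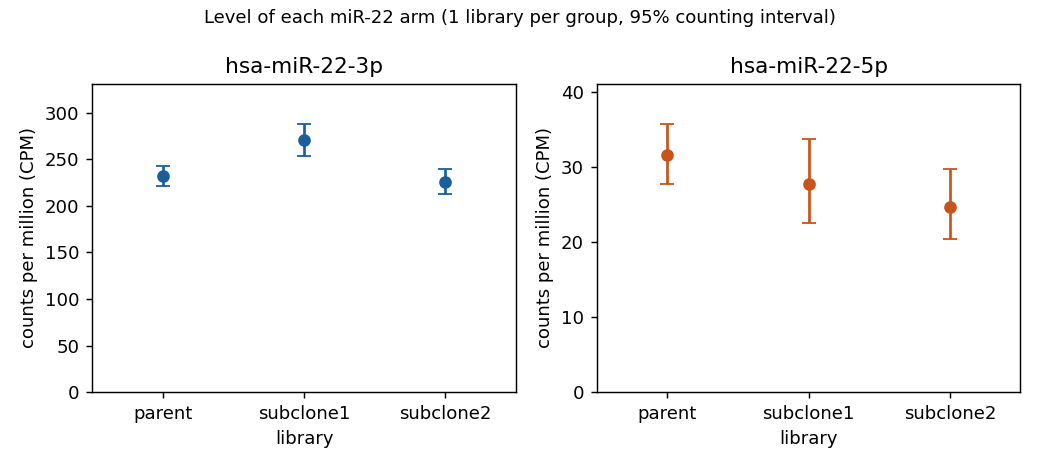
Level of each miR-22 arm in CPM in the 3 libraries, with separate vertical axes that start at 0; points are single libraries and bars are exact 95% binomial intervals for counting error. The 3p arm was highest in subclone1 (270.2 CPM) and the 5p arm in the parent (31.6 CPM).

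The 3p arm lay above the median of the well counted miRNAs and the 5p arm below it. By count, the 3p arm ranked 65th of 743 detected names in the parent, 61st of 670 in subclone1 and 64th of 675 in subclone2. The 5p arm ranked 123rd, 134th and 133rd. A total of 192 miRNAs, both arms included, averaged 10 CPM or more across the libraries and are called kept here. Among them the 3p arm had 3.43, 3.45 and 3.23 times the median level. The 5p arm had 0.467, 0.354 and 0.354 times the median. The neighbour of the 3p arm in each order was hsa-miR-29c-3p, a miRNA known to target collagen genes and DNA methyltransferases. It stood directly above the 3p arm in the parent, with 1850 counts, and in subclone2, with 1080, and directly below it in subclone1, with 953. For the 5p arm the names directly above were hsa-miR-455-5p in the parent (251 counts), hsa-miR-505-5p in subclone1 (102) and hsa-miR-1285-3p in subclone2 (114). Adapter ligation favours some RNA ends over others, so ranks of different miRNAs describe read counts.

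Subclone1, labelled as metastasizing to the lung, was first compared with the parent. The study's parental line itself gave lung and lymph node metastases in mice, so this comparison does not isolate lung tropism. With 0.5 counts added to each library, the log2 ratio of the 3p arm was 0.22 (exact conditional 95% interval 0.10 to 0.33) and that of the 5p arm was -0.19 (-0.54 to 0.15). A miRNA was called different when its ratio reached 2-fold and its interval, put back on the ratio scale, excluded 1. In each comparison, miRNAs averaging 10 CPM or more over the libraries compared were kept, so the set differs from that above. Neither arm was called, whereas 13% of the 192 miRNAs kept here were, 9.9% as higher and 3.12% as lower. The ratio of the 3p arm was a 1.16-fold difference, and 120 kept miRNAs had a larger ratio in either direction. Its interval excluded 1, as did 68.8% of all intervals at this depth. The 3p arm was also higher in subclone1 under 3 other scalings, with log2 ratios of 0.15 to 0.16.

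The strain with dual tropism, subclone2, was compared with the parent next. The log2 ratio of the 3p arm was -0.041 (-0.15 to 0.070) and that of the 5p arm was -0.35 (-0.69 to -0.029), which is 0.784-fold. Neither was called, against 10.7% of 187 kept miRNAs (5.88% higher and 4.81% lower). At an interval excluding 1 of any size, the share was 69.5%. All kept miRNAs together had a median of -0.15, and relative to it the 3p arm lay 0.11 above and the 5p arm 0.20 below. Scaling by the trimmed mean of M values (TMM) shifted the median by 0.17, to 0.017, and turned the 3p ratio to 0.13 (0.018 to 0.24), so no direction can be given for it. The log2 ratio of the 5p arm was -0.18 under TMM, and its interval (-0.52 to 0.14 in log2) then included a ratio of 1.

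The subclones, both labelled for lung and only subclone2 also for celiac lymph nodes, were compared last. The log2 ratio of subclone2 over subclone1 was -0.26 (-0.39 to -0.13) for the 3p arm and -0.17 (-0.57 to 0.24) for the 5p arm. Neither was called, against 5.76% of 191 kept miRNAs (1.57% higher and 4.19% lower), and 59.7% of the intervals excluded 1. The median of all kept miRNAs was -0.17. TMM moved it by 0.23, to 0.067, and with it the 3p ratio to -0.028 (-0.16 to 0.10) and the 5p ratio to 0.067, so the lower level in subclone2 was not separable from the scaling. In all 3 comparisons the counting intervals of both arms lay within 2-fold. The parent library enters both subclone ratios and each subclone enters 2 comparisons, so these values are not independent.

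**Figure D2:**
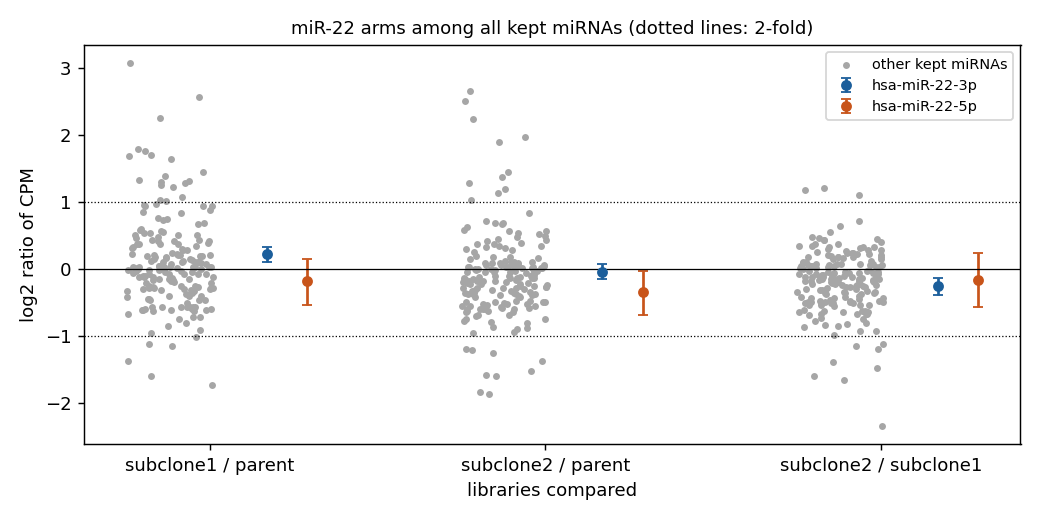
log2 ratios of CPM for the 3 comparisons; grey points are the other kept miRNAs, colored points are the miR-22 arms with their 95% counting intervals, and dotted lines mark 2-fold. Both arms and their intervals lay between the dotted lines in every comparison.

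Over the 3 libraries the range of the 3p arm was 0.26 on the log2 scale and that of the 5p arm 0.35. The median range of the 192 kept miRNAs was 0.53, from 0.041 to 3.08. The range of the 3p arm was the 37th smallest and that of the 5p arm the 58th smallest. Ranges of scarce miRNAs also hold more counting error. All ranges rest on scaling to the library total, so another scaling would change them and may change their order.

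The balance between the arms needs no library total, since both counts come from one library. Adapter ligation can still favour either arm of a hairpin, so arm shares describe read counts. The 5p arm held 12.0% of the miR-22 counts of the parent (95% exact binomial interval 10.6 to 13.5), 9.30% of those of subclone1 (7.63 to 11.2) and 9.88% of those of subclone2 (8.21 to 11.8). That is 7.34 guide counts per passenger count for the parent (6.43 to 8.41), 9.75 for subclone1 (7.92 to 12.1) and 9.12 for subclone2 (7.51 to 11.2). The share of the passenger arm was thus highest in the parent, and the intervals of all libraries overlapped.

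Compared as odds of 5p to 3p, subclone1 over the parent gave a log2 odds ratio of -0.41 (exact conditional interval -0.78 to -0.048). Subclone2 over the parent gave -0.31 (-0.67 to 0.032), and subclone2 over subclone1 gave 0.095 (-0.33 to 0.52). Only the interval for subclone1 over the parent excluded an odds ratio of 1, and none of the ratios reached 2-fold. Among hairpins with at least 20 counts over both arms in each library compared, 8.26% of 121 changed at least 2-fold with an interval excluding 1 in subclone1 over the parent, 8.13% of 123 in subclone2 over the parent and 8.47% of 118 between the subclones. An interval excluding 1 at any size was found for 22.3%, 20.3% and 22% of them. For subclone1 over the parent, 69 of the 121 hairpins had a larger odds ratio in either direction than miR-22, and 37 had a smaller one. Infinite ratios, from an arm without counts in a single library, were taken as larger. Hairpins with the same arm at 0 in both libraries had no ratio.

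In subclone1 over the parent, the ratios of the miR-22 arms lay on opposite sides of 0, although the interval of the 5p arm included 0. This was also the case for 15 of the 33 hairpins with both arms kept, miR-22 included. The arms of miR-22 were closer to each other than those of most such hairpins. The distance between their patterns, each in log2 CPM centred on its mean over the libraries, was 0.30, the 9th smallest of 33, with a median of 0.53.

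Among 118 hairpins with both arms named and at least 20 counts in every library, 44 had more counts on the 3p arm, as miR-22 did. The passenger share of miR-22 was 10.4% on average over the libraries. The median share of the minor arm was 2.72%, and 44 hairpins had a larger minor share than miR-22. In order of 5p share miR-22 stood 26th, between miR-221 (7.61%), which is known to repress the cell cycle inhibitor CDKN1B, and miR-1306 (11.8%). The 5 most abundant of these 118 hairpins had far more uneven arms. Their minor arm held 0.00248% for let-7a, 0.00804% for miR-222, 0.00298% for let-7b, 0.00265% for miR-192 and 0.0104% for let-7i. The most abundant kept miRNA, hsa-let-7f-5p (280276 CPM on average), was not covered, since the hairpins needed 5p and 3p names of the same stem. The name let-7a can arise from several hairpins, and close relatives among the let-7 names share reads. RefSeq places both miR-22 arms at a single hairpin.

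**Figure D3:**
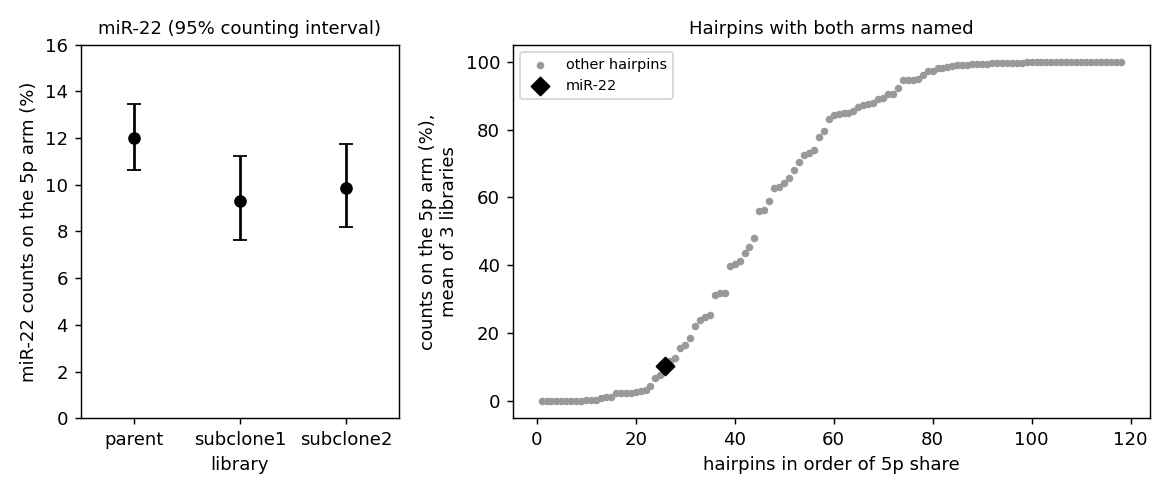
Left, share of miR-22 counts on the 5p arm in each library with its exact 95% binomial interval; right, mean 5p share over the 3 libraries for 118 hairpins in ascending order, with miR-22 as the black diamond. The 5p share of miR-22 lay between 9.30% and 12.0%, and its mean was the 26th smallest.

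The miRNAs whose pattern over the 3 libraries was most like each arm were found by the same distance among the kept miRNAs. For the 3p arm they were hsa-miR-23a-3p (distance 0.027), hsa-miR-1301 (0.037), hsa-miR-103a-3p (0.045), hsa-miR-107 (0.051) and hsa-miR-29c-3p (0.061). All of them were highest in subclone1; hsa-miR-23a-3p, for example, was at 708, 826 and 705 CPM from the parent to subclone2. hsa-miR-103a-3p and hsa-miR-107 are close in sequence, so their counts may not be separate. For the 5p arm they were hsa-miR-101-3p (0.016), known to target the histone methyltransferase EZH2, hsa-miR-28-5p (0.028), hsa-miR-130b-3p (0.041), hsa-miR-1292 (0.053) and hsa-miR-15b-5p (0.062), of a family that targets BCL2. Scaled to the library total, each was highest in the parent and lowest in subclone2, as for hsa-miR-101-3p with 1230, 1091 and 979 CPM. The 5p arm was the 62nd nearest to the 3p arm, and the 3p arm the 66th nearest to the 5p arm. Another scaling shifts all miRNAs alike and leaves these distances as they are, but changes the shape they share. Under TMM the 5p ratio of subclone2 over subclone1 turned positive, so which subclone was lowest depends on the scaling. With 3 libraries such likeness is only a description, and hsa-miR-1292 rests on few counts, at 11.8, 9.80 and 8.76 CPM.

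**Figure D4:**
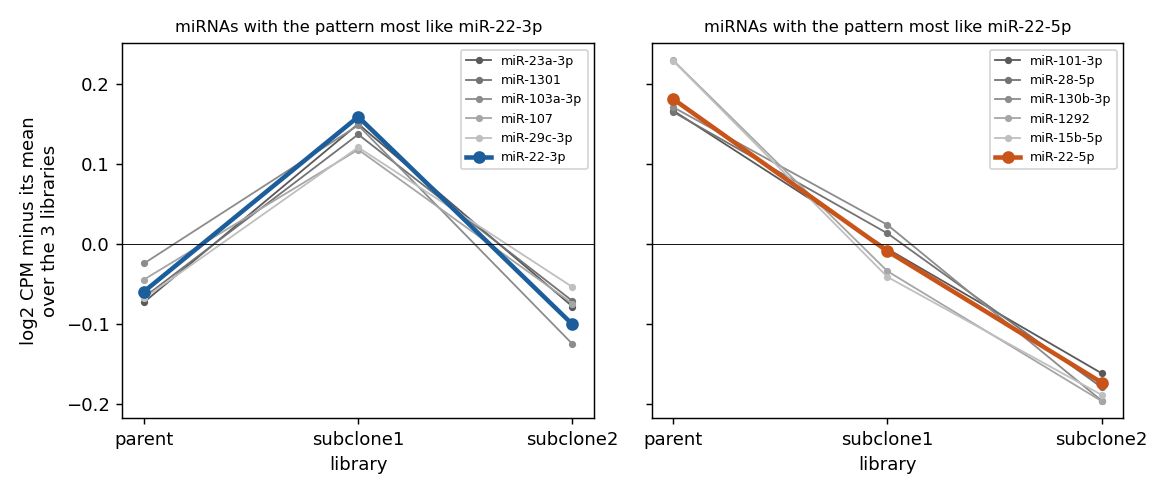
log2 CPM minus its mean over the 3 libraries for each miR-22 arm (thick line) and the 5 kept miRNAs with the smallest distance to it (grey lines); lines join libraries of one miRNA and mark no order in time. With this scaling to the library total, the set on the left peaked in subclone1. The set on the right was highest in the parent and lowest in subclone2.

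Other miRNAs of the short arm of chromosome 17 were compared with miR-22 as its neighbours. The nearest miRNA genes, MIR132 and MIR212, both known for induction by CREB, lie 336 kb from MIR22. hsa-miR-132-3p had 19, 8 and 8 counts in the parent, subclone1 and subclone2, and hsa-miR-212-3p had 4, 2 and 1. Of 25 listed names 5 were kept, both miR-22 arms among them. In subclone1 over the parent, 1 was called higher and 1 lower, where 13% of all kept miRNAs were called, with a median of -0.13 beside 0.017 for all kept miRNAs. In subclone2 over the parent, 4 were kept, 0 were called higher and 1 lower, against 10.7% of all, with a median of -0.30 beside -0.15. Without the miR-22 arms 2 names remained there, with a median of -0.92. Between the subclones 0 of 5 were called, against 5.76% of all. The list left out hsa-miR-1269b, which is also of the short arm (11203 kb from MIR22) and was added after its values were seen. It had 29.5, 69.2 and 80.1 CPM and was called higher in subclone1 (log2 1.23) and subclone2 (log2 1.44) over the parent, although it is close in sequence to hsa-miR-1269a and its counts may not be separate. With it, 2 were called higher and 1 lower in subclone1 over the parent, with a median of 0.044, and 1 higher and 1 lower in subclone2 over the parent, with a median of -0.26. No direction is drawn for the list.

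The lower miRNA was hsa-miR-4521, whose gene lies 6473 kb from MIR22, with 171, 76.7 and 56.9 CPM. The higher miRNA, hsa-miR-324-5p, had 6.83, 13.7 and 11.4 CPM. Its log2 ratio of 1.01 in subclone1 fell below the threshold with each other scaling (0.94 to 0.95). hsa-miR-744-5p, the most abundant of the list, had 820.3 CPM, 749 CPM and 687 CPM and was not called. The 20 names that were not kept summed to 156, 96 and 101 counts.

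miR-22-3p was further set beside 24 other miRNAs often described as lower in HCC, a list taken from general knowledge. Of the 25 names, 12 were kept. In subclone1 over the parent 0 were called, against 13% of all kept miRNAs, and 6 ratios lay above 0 and 6 below. hsa-miR-34a-5p, with a log2 ratio of -0.96 there, was called lower under each other scaling (-1.03 to -1.02). In subclone2 over the parent 1 was called higher and 1 lower, against 10.7% of all. These were hsa-miR-200a-3p, which represses the mesenchymal regulators ZEB1 and ZEB2 (log2 1.13, from 27.8 CPM to 61.1 CPM), and hsa-miR-34a-5p, a target gene of p53 (log2 -1.61, from 32.3 CPM to 10.5 CPM). Between the subclones 0 were called, against 5.76% of all. The list medians were -0.063, -0.11 and -0.14 in the 3 comparisons, beside 0.017, -0.15 and -0.17 for all kept miRNAs. TMM turned those of subclone2 over the parent and over subclone1 to 0.060 and 0.096, and with no minimum level that of subclone1 over the parent became 0.092, so no direction is drawn from them. Without miR-22-3p, 11 kept names remained, with library-total medians of -0.15, -0.18 and -0.12 in the same order of comparisons. With 232 CPM in the parent, the 3p arm of miR-22 was far more abundant than hsa-miR-122-5p, the main hepatocyte miRNA (6.71 CPM), and far less abundant than hsa-miR-29a-3p (18711 CPM).

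The library totals were 7902438 counts (parent), 3570864 (subclone1) and 4568075 (subclone2), and a count of 0 allowed a level of up to 0.380, 0.840 and 0.657 CPM. Of the hepatocyte markers, hsa-miR-885-5p was at 0 in every library and hsa-miR-122-5p was at 6.71, 5.32 and 3.94 CPM, while hsa-miR-192-5p was at 18528, 60246 and 69068 CPM and hsa-miR-194-5p at 108, 271 and 263 CPM. The 15 markers of blood, stroma, endothelium, muscle and neurons summed to 13.4, 28.6 and 12.3 CPM, with 6, 4 and 6 of them at 0. hsa-miR-1, listed for muscle, made up 21.6 CPM of the sum in subclone1, the library in which the 3p arm of miR-22 was highest. The other muscle markers, hsa-miR-133a and hsa-miR-206, were at only 0.280 and 1.40 CPM there. Any link of hsa-miR-1 to the miR-22 level was not tested.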

How the data were processed

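Total RNA of each strain (1 ug, extracted with Trizol per the labels) had been made into libraries with the Illumina TruSeq Small RNA kit. The authors deposited 1 raw read count per mature miRNA name and library. The submitters' processing notes name CASAVA 1.4 and the build hg19 without a role. The trimming, aligner, mismatch limit and miRBase release are not given in the sources used here. The tables hold no coordinates, and all positions given are of GRCh38 (RefSeq or GENCODE 29).

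Counts were divided by the library total (3570864 to 7902438 counts) and a miRNA was kept when it averaged 10 CPM or more across the libraries compared. Shares and levels carry exact 95% binomial intervals, which cover counting error only, since each strain had 1 library. The reads have no molecular identifiers, so amplified copies are not told apart and the intervals may be too narrow. Ratios used a pseudocount of 0.5 and an exact conditional binomial interval, and arm balance used the conditional odds ratio (scipy 1.17.1). With 1 library per group groups could not be tested, and no p-values are reported. TMM factors (edgeR 4.0.16) and median-of-ratios size factors (DESeq2 1.42.0) served as alternatives. Ratios and odds ratios were tested on simulated data. Named miRNAs were both arms, the 5 nearest in pattern to each, neighbours in count or arm order and kept list members. The cell type markers and the 5 most abundant hairpins with both arms named were also given. The members and lists were chosen with earlier results of these data known.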

Additional observations from a re-analysis of the deposited data

How the results depend on the processing

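No paired analysis was possible because there is 1 library per strain, and no library could be left out. The alternative values for the log2 ratios of the arms numbered 30, with the ratio of both arms summed set against each arm. Of these, 24 stayed within the interval of the reported value. Neither arm reached the threshold under any of them or at a fold threshold of 1.5. The other 6 moved. For the 3p arm, subclone2 over the parent was 0.13 with TMM factors and 0.11 with median-of-ratios size factors, and subclone2 over subclone1 was -0.028, -0.046 and, with a total that leaves out the 10 leading miRNAs of each library, -0.12. The last was the ratio of both arms summed in subclone1 over the parent, 0.18, which lay outside the interval of the 5p arm. That sum holds mainly 3p counts, so it is not another value of the 5p ratio. The 3 sample odds ratios of arm balance, with 0.5 counts added, stayed within the intervals of the reported values. The median of the chromosome 17 list in subclone1 over the parent turned from -0.13 to 0.23 with no minimum level. The numbers of called miRNAs for subclone1 over the parent, subclone2 over the parent and subclone2 over subclone1 were 25, 20 and 11. They were 56, 50 and 36 at a fold threshold of 1.5, 7, 5 and 2 with a minimum of 100 CPM, and 67, 75 and 33 with no minimum level, by construction of these settings. The hairpins with a called change of arm balance numbered 10 in each comparison, 19, 18 and 17 at a fold threshold of 1.5, and 6 for subclone1 over the parent with a minimum of 100 counts. Of the 5 miRNAs most like the 5p arm, 2 were among the nearest 5 with a minimum of 100 CPM, which removes scarcer ones. The depth limited the 5p arm most, with 99 to 250 counts a library.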
